A study of Mus musculus with 6 samples.

Results

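Chromatin profiles of NUP214 from leukemia stem cells (LSCs) that carried Cre with 1 floxed Nup214 allele were compared with those from normal hematopoietic stem cells (HSCs). The comparison took 4 of the 6 libraries of the study by their sample titles. The Nup214-HET LSC libraries 1 and 2 listed 5452 and 4681 peaks on chromosomes 1 to 19, X and Y, and the HSC libraries 1 and 2 listed 1045 and 634.

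Nup214-HET LSCs were sorted from Nup214fl/+,Tie2-Cre mice whose acute myeloid leukemia was caused by MLL-AF9, and normal HSCs from Nup214fl/+ mice. MLL-AF9 is a fusion oncogene, and Tie2-Cre is active in blood and endothelial cells. LSCs were gated as lineage-negative, Sca-1-negative cells with c-Kit, CD34 and CD16/32, HSCs as CD48-CD150+LSK cells, and all groups shared the bone marrow source and the NUP214 antibody. Groups that differ in leukemia, gate and Cre at once were therefore set side by side, and these 3 differences cannot be told apart within the pair. The remaining 2 libraries, control LSCs from Nup214fl/+ leukemic mice without Cre, are used below only as a further reading at the same regions. The labels' cell type entry names hematopoietic stem cells for all 6 libraries, they give no age, and separate animals are not stated for libraries of 1 group. Where such libraries are technical repeats, the p-values describe technical spread alone. The protocol gives 2000 to 5000 cells and 17 to 20 PCR cycles, and none of the labels names a library made without the antibody.

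NUP214 is a subunit of the nuclear pore complex on its cytoplasmic side, where it takes part in the export of RNA and protein. Several nucleoporins are also known to contact chromatin, at active genes among other places. CUT&Tag uses an antibody to bring a transposase to its target, and the cut fragments are sequenced and called as peaks. HSCs renew themselves and give rise to all blood lineages, whereas LSCs of the MLL-AF9 model resemble granulocyte-monocyte progenitors and propagate the leukemia.

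Promoters of each class are shown here because regions called in Nup214-HET LSCs and not in HSCs lay mainly at gene ends. Each is the RefSeq promoter (GRCm38.p6, the same assembly as mm10) from 250 bases before to 50 bases after the gene start, 5′ to 3′ on the gene's strand. Capitals mark matches to GGGCGG, the core of the GC box bound by Sp and KLF proteins, and to CCAAT, the box bound by NF-Y, each on either strand. The Kdm3a promoter (chr6:71632868-71633167, minus strand) and the Atf7 promoter (chr15:102625415-102625714, minus strand) overlapped a peak in both Nup214-HET LSC libraries and in neither HSC library. The promoters of Sf1 (chr19:6363440-6363739, plus strand) and Tbl2 (chr5:135149436-135149735, plus strand) overlapped a peak in both Nup214-HET LSC libraries and in HSC 1. The Camsap1 promoter (chr2:25983233-25983532, minus strand) overlapped a peak in HSC 1 and in neither Nup214-HET LSC library.
Kdm3a: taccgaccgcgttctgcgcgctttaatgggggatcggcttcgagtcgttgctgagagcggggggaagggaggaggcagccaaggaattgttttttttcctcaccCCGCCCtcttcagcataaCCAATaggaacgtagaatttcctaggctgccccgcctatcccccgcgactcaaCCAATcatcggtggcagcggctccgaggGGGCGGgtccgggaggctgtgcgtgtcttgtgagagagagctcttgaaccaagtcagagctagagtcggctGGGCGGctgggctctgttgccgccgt
Atf7: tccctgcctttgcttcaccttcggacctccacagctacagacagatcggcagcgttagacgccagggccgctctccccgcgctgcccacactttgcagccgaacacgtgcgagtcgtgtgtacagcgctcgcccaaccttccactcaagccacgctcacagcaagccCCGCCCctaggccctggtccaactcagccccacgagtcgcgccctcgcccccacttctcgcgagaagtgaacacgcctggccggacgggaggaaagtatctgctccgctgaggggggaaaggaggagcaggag
Sf1: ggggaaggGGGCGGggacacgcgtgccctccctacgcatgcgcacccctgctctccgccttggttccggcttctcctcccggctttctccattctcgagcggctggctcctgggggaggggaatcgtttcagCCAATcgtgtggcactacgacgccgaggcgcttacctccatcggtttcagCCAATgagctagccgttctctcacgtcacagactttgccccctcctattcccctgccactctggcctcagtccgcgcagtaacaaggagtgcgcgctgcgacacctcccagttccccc
Tbl2: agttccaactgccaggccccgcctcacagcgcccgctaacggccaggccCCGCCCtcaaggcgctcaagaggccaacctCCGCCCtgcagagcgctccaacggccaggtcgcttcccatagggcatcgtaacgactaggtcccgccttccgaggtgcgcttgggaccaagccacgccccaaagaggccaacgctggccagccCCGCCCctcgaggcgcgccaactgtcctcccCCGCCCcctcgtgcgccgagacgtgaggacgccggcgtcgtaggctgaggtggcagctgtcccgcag
Camsap1: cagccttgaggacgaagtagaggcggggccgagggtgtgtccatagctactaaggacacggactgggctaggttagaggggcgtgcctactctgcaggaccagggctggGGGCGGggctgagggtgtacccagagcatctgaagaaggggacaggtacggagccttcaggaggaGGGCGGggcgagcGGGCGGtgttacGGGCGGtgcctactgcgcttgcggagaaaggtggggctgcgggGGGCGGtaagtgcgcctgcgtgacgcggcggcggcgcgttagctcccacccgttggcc

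Kdm3a, which encodes a histone H3 lysine 9 demethylase, held 24 CpG dinucleotides in these 300 bases and Atf7, a transcription factor of the ATF family, held 25. Sf1, which binds the intron branch point in splicing, held 24, Tbl2 held 31, and Camsap1, which binds the minus ends of microtubules, held 26. All 5 promoters thus stood above the median of 13 CpG over 21263 RefSeq promoters of 17492 protein-coding genes. Summits are given in bases from the gene start of the promoter entry shown, negative upstream. At Kdm3a, Sf1 and Tbl2 that start lay inside the gene's outermost start, which is used further below. At Sf1 the peak summits of Nup214-HET LSC 1, Nup214-HET LSC 2 and HSC 1 lay at -24, -20 and -23 bases. At Tbl2 they lay at -366, -317 and -327 bases, so at both genes the groups' summits fell within 50 bases of each other. The Nup214-HET LSC 1 and 2 summits lay at -288 and -481 bases at Kdm3a and at 190 and 228 bases at Atf7. Summits at Kdm3a, Atf7 and Tbl2 thus lay outside the bases shown.

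Nup214-HET LSCs had more NUP214 peaks than HSCs in every pairing of libraries. Mean log2 peak number was higher by 2.63, or 6.21-fold, and the lower Nup214-HET list was longer than the higher HSC list. Peaks covered 2744 and 2419 kb in the Nup214-HET libraries, against 399 and 250.4 kb in the HSC libraries, a difference of 3.03 on the log2 scale or 8.15-fold. Both differences reached p = 0.33 in a two-sided exact permutation test, the smallest p that 2 libraries against 2 can give, so they exceed the spread between libraries without being able to pass 0.05.

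Depth, as implied by the authors' folds and p-values, did not run in the same order as peak number. The background pileup was 0.393 and 0.392 in Nup214-HET LSCs, against 0.697 and 0.310 in HSCs, and depth relative to Nup214-HET LSC 2 came to 1.03, 1, 2.85 and 1.14 in the order Nup214-HET LSC 1, Nup214-HET LSC 2, HSC 1 and HSC 2. The lowest summit entered a list at 10.2 times background in both Nup214-HET LSC libraries, at 8.61 in HSC 1 and at 16.1 in HSC 2. Counting only peaks of at least 50 times background left 955 and 762 against 107 and 121, and again no HSC library reached a Nup214-HET one. Narrow peaks set the lists apart as well: the narrowest peak was 320 and 329 bp in Nup214-HET LSCs but 205 and 229 bp in HSCs, with median widths of 435 and 454 bp against 286 and 286 bp. The part of peak width in the results below was not tested.

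Peaks at gene ends made up a larger share of both Nup214-HET LSC lists than of either HSC list. A gene-end peak lay within 1 kb of either outermost end of 1 of 21887 protein-coding genes, a gene-body peak elsewhere in such a gene, and an intergenic peak outside both. Gene-end peaks were 37.5% of the Nup214-HET LSC 1 list (Wilson 95% interval 36.2 to 38.8) and 35.4% of the Nup214-HET LSC 2 list (34.1 to 36.8). They were 17.3% of HSC 1 (15.1 to 19.7) and 3.00% of HSC 2 (1.93 to 4.63). The group means were 36.4% ± 1.45 and 10.2% ± 10.1 (SD, n = 2 each), a difference of 26.3 percentage points with p = 0.33 in the exact permutation test. Intervals cover counting error only, and the HSC libraries differed from each other by more than counting error.

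Intergenic peaks took the larger share in HSCs, 50.0% and 60.1% against 33.2% and 34.5%, and gene bodies a slightly larger one, 32.7% and 36.9% against 29.3% and 30.0%. The group means, Nup214-HET LSC minus HSC, differed by -21.1 points for intergenic and by -5.15 points for gene-body peaks, each with p = 0.33 in the exact permutation test. When all peaks were moved by 50 kb, gene-end shares were 7.41%, 7.33%, 4.02% and 4.10% in the order above, and the HSC 2 share lay within counting error of that of the same list displaced. The gap was wider at equal list length: among the strongest 634 peaks of each list by q, the length of the shortest list, 65.5% and 64.2% were gene-end peaks in Nup214-HET LSCs, against 18.6% and 3.00% in HSCs. Among peaks of at least 50 times background the shares were 66.9% and 66.1% against 3.74% and 2.48%. Leaving out peaks in the 109 regions called in all 6 libraries gave 38.1%, 36.1%, 18.9% and 2.50%.

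**Figure D1:**
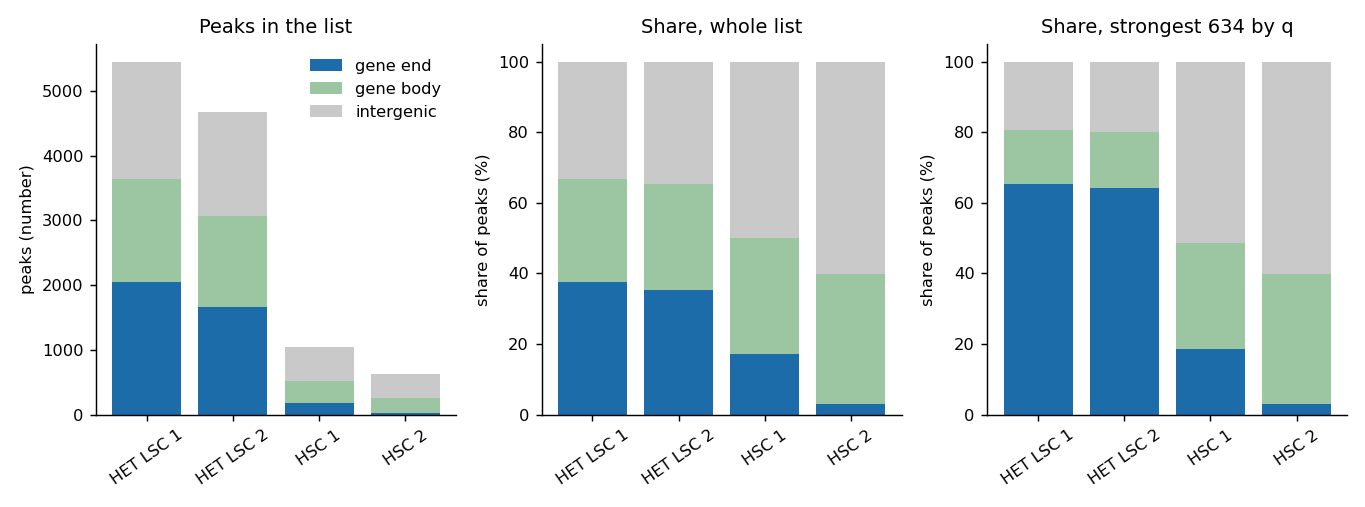
Peaks by location in each library, as numbers (left), as shares of the whole list (middle) and as shares of the strongest 634 peaks by q (right). Gene-end peaks fall from 37.5% and 35.4% of the Nup214-HET LSC (HET LSC) lists to 17.3% and 3.00% of the HSC lists, and the gap widens at equal list length.

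Gene starts, not the other ends, held most of these peaks. Where the gene's strand was known, 1694 of the gene-end peaks of Nup214-HET LSC 1 lay at a start and 54 at the other end, and 1362 and 48 in Nup214-HET LSC 2. HSC 1 had 141 at a start and 12 at the other end, and HSC 2 had 10 and 7. The start therefore took 96.9%, 96.6% and 92.2% in the first 3 libraries and 58.8% of 17 peaks in HSC 2.

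Summits within 1 kb of a gene start made up 31.3% and 29.0% of peaks in Nup214-HET LSCs, 13.5% in HSC 1 and 1.45%, or 9 peaks, in HSC 2. Their median position relative to the start, negative upstream, was -11 and -7 bp in Nup214-HET LSCs, with quartiles of -148 and 153 bp and of -158.5 and 166.5 bp. In HSC 1 the median was -100 bp, with quartiles of -226 and 61 bp. The median distance of any summit from the nearest gene start was 16.8 and 19.7 kb in Nup214-HET LSCs, against 50.3 and 68.0 kb in HSCs. Gene starts in this count are the outermost ones of genes with a RefSeq promoter entry.

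**Figure D2:**
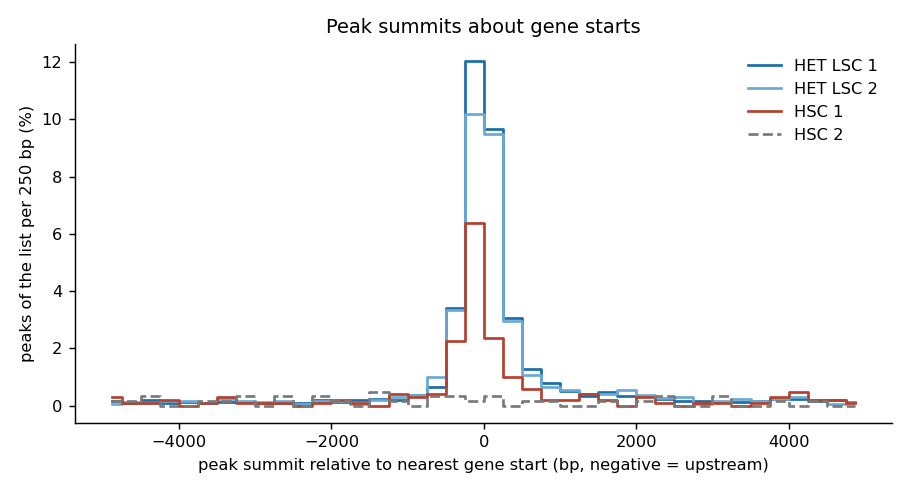
Position of peak summits about the nearest gene start, as the percent of each list in windows of 250 bp, with negative values upstream. Both Nup214-HET LSC (HET LSC) libraries peak at the start, HSC 1 shows a lower peak just upstream, and HSC 2, with 9 summits within 1 kb, shows none.

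Strength within a list also differed by location. Each peak was ranked by the authors' fold enrichment within its own list, and the median percentile of gene-end peaks was 67.4 and 65.9 in Nup214-HET LSCs, against 35.6 and 36.7 for intergenic peaks. In HSC 1 gene-end peaks had a median percentile of 52.4 and intergenic peaks of 50.6. In HSC 2 the values were 61.4 for 19 gene-end peaks and 49.1 for intergenic peaks. Gene-end peaks thus led the Nup214-HET lists and stood near the middle of HSC 1.

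Replicates overlapped most at gene ends in Nup214-HET LSCs. Of the peaks of Nup214-HET LSC 2, 39.9% overlapped a peak of Nup214-HET LSC 1 by at least 1 bp, with 69.8% at gene ends, 25.7% in gene bodies and 21.8% between genes. Of the peaks of HSC 2, 35.5% overlapped a peak of HSC 1, and 21.2% once regions called in all 6 libraries were left out. At gene ends 52.6% of the 19 HSC 2 peaks overlapped a peak of HSC 1, and 5.52% of the 181 HSC 1 peaks overlapped a peak of HSC 2. A statement on gene ends in HSCs therefore rests mainly on HSC 1.

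Regions overlapped by both libraries of a group were taken as that group's regions. Nup214-HET LSCs had 1867 such regions, of which 1158 lay at gene ends, 358 in gene bodies and 351 between genes. Neither HSC library had a peak at 1518 of them (81.3%), 1 HSC library at 214 (11.5%) and both at 135 (7.23%). HSC 1 overlapped 18.1% and HSC 2 7.87% of the regions, a mean of 13.0% ± 7.20 (SD, n = 2).

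Location separated these classes. Of the 1158 gene-end regions, 1018 had no HSC peak, 133 had 1 and 7 had both. Of the 351 intergenic regions, 214 had none, 46 had 1 and 91 had both. Without the regions called in all 6 libraries, 1756 Nup214-HET regions were left, of which 1518 (86.4%) had no HSC peak, 213 (12.1%) had 1 and 25 (1.42%) had both, and among 1152 gene-end regions only 1 had both. Shared regions between genes were thus largely the ones every library listed.

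Control LSCs had peaks at most Nup214-HET regions, with or without an HSC peak. The control LSC lists were the longest, with 25437 and 10525 peaks. Of the 1518 regions with no HSC peak, both control LSC libraries had a peak at 1100 (72.5%), 1 at 305 and neither at 113 (7.44%). Over all 1867 Nup214-HET regions both control LSC libraries had a peak at 1383 (74.1%). The share was 81.3% where 1 HSC library had a peak and 80.7% where both had one. It was therefore not particular to regions that HSCs lacked. After all lists were cut to 634 peaks, 441 regions were shared by the Nup214-HET LSC libraries, and control LSC peaks overlapped 58.3% and 56.9% of them against 40.4% and 21.8% for HSC peaks. That difference in means of 26.5 points had p = 0.33 in the exact permutation test, the smallest possible. It was 12.7 points when lists were cut at 317 peaks, and 39.0 points without regions called in all 6 libraries. Both LSC groups share leukemia and gate, and control LSCs share the lack of Tie2-Cre with HSCs. The part of each in this difference was not tested.

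Regions that were stronger in Nup214-HET LSCs more often had a peak in HSC 1. The 1756 regions without those of all 6 libraries were split into 10 steps of strength, equal in number over all 1867 regions, by mean percentile of fold. HSC 1 had a peak at 3.39% of the regions of step 1, the weakest, 7.61% of step 5, 15.2% of step 8, 35.6% of step 9 and 44.3% of step 10. In HSC 2 the same steps had 0.565%, 2.72%, 3.37%, 2.87% and 4.92%. Among gene-end regions step 10 had an HSC 1 peak at 44 of 95 regions (46.3%) and an HSC 2 peak at 2. Over the 1756 regions together the HSC 1 share thus climbed with strength, and the HSC 2 share stayed low. Away from gene ends the HSC 1 share was 4.26% in step 1, 61.1% in step 9 and 37.0% in step 10. The HSC 2 share there was 1.06%, 13.9% and 14.8% in the same steps.

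**Figure D3:**
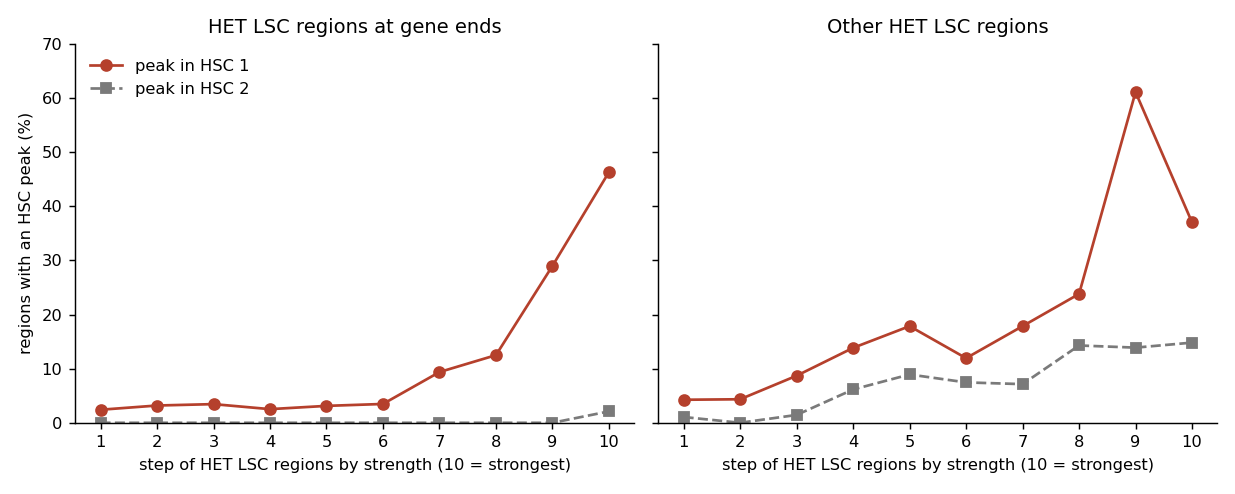
Percent of Nup214-HET LSC (HET LSC) regions with a peak in HSC 1 or HSC 2, by step of strength from 1 (weakest) to 10, for gene-end regions (left) and other regions (right), without regions called in all 6 libraries. At gene ends the HSC 1 share climbs to 46.3% in step 10 while HSC 2 has none below that step.

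The strongest Nup214-HET regions with no HSC peak were a mixture of intergenic and genic sites. The first lay between genes at chr12:54710504-54711072 in mm10, with the authors' fold enrichment at 15.4 in Nup214-HET LSC 1 and 15.3 in Nup214-HET LSC 2. Control LSCs reached 29.6 and 20.4 there. Next came an intergenic region at chrX:13387706-13388204, with folds of 11.0 and 13.6, and the start of Kdm3a, with 11.0 and 11.8. A region inside Aph1b, which encodes a gamma-secretase subunit, at chr9:66795353-66795992 had 10.6 and 12.0, and the start of Atf7 had 10.4 and 12.0. All 5 were also called in both control LSC libraries, as were 72.5% of the 1518 regions with no HSC peak and 74.1% of all 1867 regions. Folds here and below describe peaks within a list and are not comparable in size between libraries.

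Outside the regions of all 6 libraries, 25 Nup214-HET regions had a peak in both HSC libraries. Of these, 16 lay between genes, 8 in gene bodies and 1 at a gene end. By that definition none was called in both control LSC libraries, 16 were called in 1 and 9 in none. The strongest, at chr5:36630390-36630782, was the gene-end one, at the other end of Gm32584 and inside D5Ertd579e. It had folds of 18.4 and 17.6 in Nup214-HET LSCs, against 26.1 and 19.4 in HSCs. An intergenic region at chr17:3081596-3082281 had 9.52 and 8.98 against 8.61 and 10.7, and a region inside Dhx8, an RNA helicase of splicing, at chr11:101739884-101740465 had 7.84 and 12.2 against 5.62 and 5.71. Neither of the last pair was called in any control LSC library.

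HSCs had 219 regions overlapped by both libraries, and most lay between genes: 139 between genes, 70 in gene bodies and 10 at gene ends. Both Nup214-HET LSC libraries had a peak at 134 (61.2%), 1 at 36 (16.4%) and neither at 49 (22.4%). Nup214-HET LSC 1 overlapped 74.4% and Nup214-HET LSC 2 64.4% of HSC regions, a mean of 69.4% ± 7.10 (SD, n = 2). Without regions of all 6 libraries the mean fell to 38.0% ± 14.4, since 111 of the 219 were of that kind, and 49 of the 108 left (45.4%) had no Nup214-HET peak. The overlap of HSC regions with Nup214-HET LSCs thus rests for the most part on regions that every library listed. Each region was counted singly, although some lay close together, such as those from chr9:3000004 to chr9:3038267. The repeat content of the regions was not read.

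Among the strongest HSC regions, those missing from Nup214-HET LSCs were narrow. Of the 20 HSC regions ranked first by mean percentile of fold, 9 had no Nup214-HET peak and 11 had one in both libraries. All 20 were called in both control LSC libraries. Those 9 were 240 to 319 bp wide, while the narrowest peak in a Nup214-HET list was 320 bp. Over all 49 HSC regions with no Nup214-HET peak the median width was 311 bp, with a range of 233 to 886 bp. For the 134 regions with both it was 628 bp, with a range of 242 to 7189 bp, so narrow regions were also among these. The part of the caller's minimum width in this pattern was not tested.

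The first such region, at chr12:3109872-3110140 between genes, had folds of 45.4 and 40.8 in HSCs and of 58.2 and 57.5 in control LSCs, and the nearest Nup214-HET peaks were 125298 and 125131 bp away. A region inside Chl1, a neural cell adhesion gene, at chr6:103649048-103649333 had 45.1 and 40.3 in HSCs and 58.2 and 54.7 in control LSCs. An intergenic region at chr8:83756696-83757014 had 40.6 and 37.9 in HSCs. A region inside Flt1, which encodes a receptor for vascular endothelial growth factor, at chr5:147611435-147611707 had 41.4 and 36.8, and one inside Ttc21b, a gene of ciliary transport, at chr2:66189206-66189508 had 34.9 and 33.7. The first pair had the highest folds among HSC regions, and regions called in all 6 libraries lay among the others in the same range, such as chr12:120028663-120029008 with 42.3 and 38.0.

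In all, 24 HSC regions were called in both control LSC libraries and in neither Nup214-HET library. They were 233 to 587 bp wide with a median of 286.5 bp, and 16 of them had a mean percentile above 90 in HSCs. They lay on 13 chromosomes, 15 between genes, 8 in gene bodies and 1 at a gene end. Seen from the 6668 regions of control LSCs, 25 were in both HSC libraries and no Nup214-HET library, 1108 were in both Nup214-HET libraries and no HSC library, and 112 were in both of both. At regions of the first kind HSCs and control LSCs were called and Nup214-HET LSCs were not. Nup214-HET LSCs alone carried Cre, and their narrowest peaks were 320 and 329 bp wide. The part of either in this pattern was not tested.

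**Figure D4:**
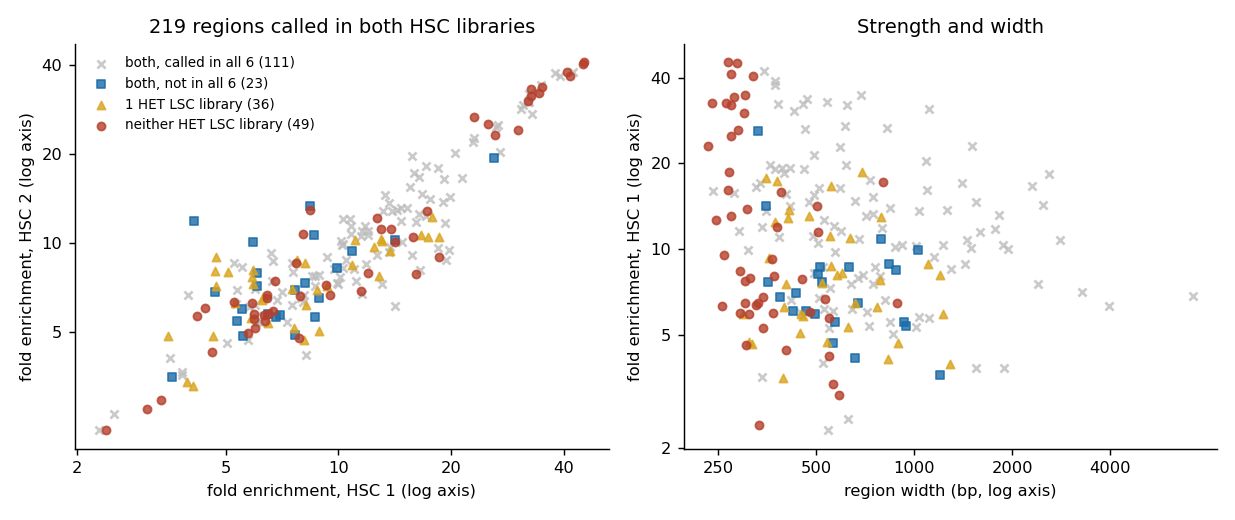
The 219 regions called in both HSC libraries, by fold enrichment in HSC 1 and HSC 2 (left) and by region width and fold in HSC 1 (right), all on log axes, marked by the number of Nup214-HET LSC (HET LSC) libraries with a peak. Regions missing from both Nup214-HET libraries include the highest folds, and the strongest 9 of them are 240 to 319 bp wide.

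Read one list at a time, HSC 1 peaks at gene ends were mostly shared, and HSC peaks elsewhere mostly not. Of the 181 gene-end peaks of HSC 1, 137 overlapped peaks of both Nup214-HET LSC libraries, 17 of 1 and 27 of neither. Of the 19 of HSC 2, 8 overlapped both and 8 neither, and without regions of all 6 libraries 8 of 13 overlapped neither. Of all 1045 peaks of HSC 1, 543 (52.0%) overlapped neither, and of the 634 of HSC 2, 409 (64.5%). In the other direction 91.5% and 90.8% of the Nup214-HET peaks overlapped no HSC peak.

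Genes followed the regions. A gene-end peak was called in both Nup214-HET LSC libraries at 1480 of 21887 protein-coding genes (6.76%), from 2524 and 2076 genes in the single libraries. HSC 1 had 227 such genes and HSC 2 had 19, in all 237 (1.08%), and both HSC libraries called 9 (0.0411%). Of the 1480 Nup214-HET genes, 1298 (5.93% of all genes) had no HSC gene-end peak, 175 had 1 in a single HSC library and 7 in both. HSC 1 covered 12.2% and HSC 2 0.541% of the Nup214-HET genes, whereas 181 of the 227 HSC 1 genes (79.7%) and 8 of the 19 HSC 2 genes (42.1%) were Nup214-HET genes. Outside regions of all 6 libraries, the 176 genes with an HSC peak had median percentiles of 93.1 and 92.5 in Nup214-HET LSCs, against 75.0 and 73.3 for the 1298 without.

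Control LSCs had both libraries called at 1096 of the 1298 genes without an HSC peak (84.4%) and at 171 of the 175 with one, and neither library at 14 and 3 genes. Those 3, looked at after their values were seen, were Duxf3 and Gm4981, which share a single peak, and Gm46913. The Duxf3 peak had folds of 4.35 and 4.58 in Nup214-HET LSCs and 6.38 in HSC 1, and the Gm46913 peak 8.40 and 5.92 against 4.49. Duxf3 belongs to the repeated Dux genes, whose reads may be split between copies, so that its value is uncertain.

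The leading genes with gene-end peaks in both Nup214-HET LSC libraries and in no HSC library covered chromatin, transcription, protein turnover and trafficking. Kdm3a had a fold of 11.0 and 11.8, in the same order of libraries as above, and Atf7 10.4 and 12.0. Vps26c, a subunit of an endosomal recycling complex, had 10.9 and 10.9, and Trim41, a ubiquitin ligase, had 12.8 and 9.75. Ppp2r5c, a regulatory subunit of protein phosphatase 2A, had 10.9 and 10.1, and Eif4ebp2, a repressor of translation, had 9.96 and 11.8. Dcaf11, a substrate receptor of a ubiquitin ligase, had 10.6 and 10.4, and HSC 1 had 1 peak inside this gene away from its ends. Every one of the genes named here had its Nup214-HET peak at the gene start.

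Several of the strongest peaks lay within 1 kb of the ends of neighbouring genes. The peak near the starts of both Ap2a1, a subunit of the clathrin adaptor, and Tsks had folds of 10.6 and 10.3. Another near the starts of both Dcaf6 and Mpc2, a subunit of the mitochondrial pyruvate carrier, had 10.3 and 10.4. Neither can be given to a single gene. A peak that spanned the start of Rab4b, an endosomal GTPase, and lay near the other end of Mia had 10.3 and 10.9. The 15 genes of this group all had a peak in both control LSC libraries as well, as did 84.4% of all 1298 genes of the class.

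The leading genes called in both Nup214-HET LSC libraries and in HSC 1 took part in splicing, signalling and transcription, among other roles. Sf1 had 11.9 and 11.0, with 7.86 in HSC 1, and Tbl2 had 11.1 and 11.7, with 6.65. Csnk1g2, a casein kinase 1 isoform, had 11.1 and 10.9, with 11.9 in HSC 1. Tle4, a corepressor of the Groucho family, had 11.0 and 11.3, with 6.55, and Slc35f5 had 11.0 and 11.2, with 6.48. Vkorc1l1, which reduces vitamin K and is listed among ferroptosis suppressors, had 11.3 and 10.9, with 6.65. Peaks shared by Hdlbp and Septin2 and by Cdca3 and Usp5 had 5.89 and 4.30 in HSC 1. None of these 10 genes had a peak in HSC 2.

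Both HSC libraries called 9 genes, and 7 of these were also called in both Nup214-HET LSC libraries, all but 1 at regions called in all 6 libraries. Of these, 4 had the peak at the start: Sp1, a transcription factor that binds the GC box, had folds of 8.21 and 4.18 in HSCs, against 11.0 and 8.89 in Nup214-HET LSCs, and Ppm1b, Rab40c and Zbtb20 had HSC folds of 5.49 to 7.52. At the other end of the gene were Lars2, mitochondrial leucyl-tRNA synthetase, with 19.3 and 8.77 in HSCs, against 21.5 and 20.5 in Nup214-HET LSCs, as well as Lypd4 and Gm32584. Gm51572 was called in 1 Nup214-HET library. Wls, which carries Wnt proteins to the cell surface, had 25.0 and 25.1 at its other end in HSCs and 32.3 and 10.6 in control LSCs. Nup214-HET LSCs had no gene-end peak there, but each library had 1 peak inside the gene. The HSC region at Wls was 274 bp wide, below the narrowest Nup214-HET peak of 320 bp.

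Genes with an HSC gene-end peak and none in Nup214-HET LSCs numbered 35, or 0.160% of all genes, and Wls alone among them was in both HSC libraries. Control LSCs had both libraries called somewhere at the gene ends of 14 of the other 34 (41.2%) and neither at 10. Among genes with no peak in the 4 libraries, both control LSC libraries called 12.5%. Camsap1 had a fold of 6.87 in HSC 1 and of 22.4 and 17.7 in control LSCs, and Tada1, a subunit of the SAGA coactivator, had 6.35 in HSC 1 and 17.0 and 17.6 in control LSCs. St3gal6, a sialyltransferase, had 6.48 in HSC 2, and its control LSC peaks, with 6.55 and 4.16, did not overlap the HSC 2 peak. Inpp4b, a lipid phosphatase, had 6.21 in HSC 1, and its control LSC 1 peak, with 10.6, did not overlap that peak either. Ly86, a partner of a toll-like receptor homolog, had 6.90 at its other end in HSC 1. It had no gene-end peak in control LSCs, although control LSC 2 had 1 peak inside the gene. Slc9b2 had 5.89 in HSC 1, also at the other end. Tmem229a had 6.17 in HSC 1, and Gpr132 and Dnajc3, an endoplasmic reticulum chaperone, had 6.03 and 5.85 in HSC 2.

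Gene lists were read against the 6.76% of all protein-coding genes that both Nup214-HET LSC libraries called. Splicing factors were called at 17 of 38 genes, 5 of them also in HSC 1: Ddx5, Hnrnpa1, Sf1, Hnrnpa2b1 and U2af2. Ddx5, an RNA helicase, had folds of 9.81 and 9.29 in Nup214-HET LSCs and 5.17 in HSC 1, and Hnrnpa2b1 had 7.10 and 7.84 and 6.98. Hnrnpk and Srsf2 were called in Nup214-HET LSCs alone of the pair, with 10.6 and 7.86 and with 8.52 and 8.68. Cell cycle genes were called at 9 of 30, among them Pcna, the sliding clamp of replication, with 8.84 and 9.68, and Cdk4 with 6.69 and 6.45. Mcm4, a subunit of the replicative helicase, was the only one also in HSC 1, with 5.30. Ribosomal protein genes were called in both libraries at 2 of 33 and in 1 library at 13, with Rps19 also in HSC 1.

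Ferroptosis is an iron-dependent form of cell death by lipid peroxidation. Of 30 suppressor genes 6 were called in both Nup214-HET LSC libraries and 1, Vkorc1l1, in an HSC library. Nfe2l2, the NRF2 transcription factor of the antioxidant response, had folds of 8.38 and 7.22, Hspa5, an endoplasmic reticulum chaperone, 7.79 and 7.46, and Atf4, a transcription factor of amino acid stress, 6.09 and 6.12. Slc3a2, the heavy chain of the cystine importer, had 7.83 and 4.28, and Ftl1, ferritin light chain, 4.73 and 5.64. Of 31 driver genes 3 were called, namely Vdac2 with 8.004 and 7.13, Cyb5r1 with 7.03 and 5.34, and Ncoa4, the ferritin receptor of autophagy, with 5.89 and 5.10. HSC libraries had a peak at 0 of the 31 driver genes, against 1.08% of all genes.

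Nucleoporin genes were called at 6 of 31 in both Nup214-HET LSC libraries. Tpr, of the nuclear basket, had folds of 8.83 and 10.0 and 4.12 in HSC 1, and Nup98 had 8.33 and 8.53 and 4.25. Nup107, Ranbp2, Nupl1 and Nup88, the last a direct partner of NUP214, had folds of 4.18 to 6.58 and no HSC peak. Nup214 itself had no gene-end peak in any of the 4 libraries, and peak lists carry no measure of how much NUP214 protein a cell held. Immediate-early and AP-1 genes were called at 7 of 26, such as Jund with 6.74 and 5.50 and Klf2 with 6.03 and 5.05, and the only one with an HSC peak was Klf6, which 1 Nup214-HET library called.

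Blood cell identity lists had counts near or below the 6.76% of all genes in Nup214-HET LSCs, and near the 1.08% of all genes with a peak in any HSC library. HSC identity genes were called at 1 of 30 in Nup214-HET LSCs, Egr1, and at 0 of 30 in HSCs, so these lists give no check of the HSC label. Targets of MLL fusions were called at 1 of 33 in Nup214-HET LSCs, Pbx3 with 3.66 and 5.20, and at Runx2 in HSC 1. Granulocyte-monocyte genes were called at 2 of 30, Csf2ra, a receptor chain for GM-CSF, with 5.82 and 5.81 and Spi1, the PU.1 transcription factor, with 3.54 and 3.69, and at Ly86 in HSC 1. Megakaryocyte genes were called at 1 of 18 (Nfe2) and T and NK cell genes at 1 of 22 (Cd3d), and erythroid, B cell, and endothelial and stromal genes at 0 of 20, 0 of 17 and 0 of 23. Olfactory receptor genes, which blood cells do not use, were called in both Nup214-HET libraries at 0 of 1110 and in HSCs at 0, with 7 in a single Nup214-HET library. HSC 2, with 19 genes in all, had no gene-end peak at any gene of the 16 lists, and at so few genes these counts say nothing about the lists.

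**Figure D5:**
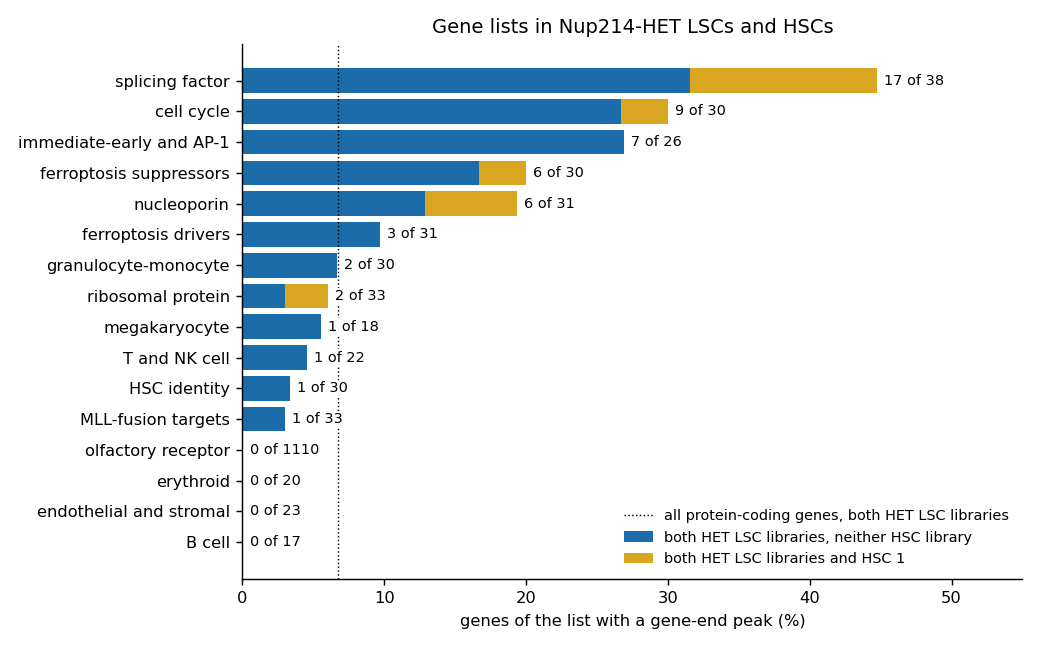
Percent of each gene list with a gene-end peak in both Nup214-HET LSC (HET LSC) libraries, split by whether HSC 1 had one too, with the number of genes beside each bar. The dotted line marks the 6.76% of all protein-coding genes. Splicing factors stand highest with 17 of 38 genes, and olfactory receptors have 0 of 1110.

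Promoters called in Nup214-HET LSCs were rich in CpG, with or without an HSC peak. The 1167 RefSeq promoters overlapped by peaks of both Nup214-HET LSC libraries and no HSC library had a median of 24 CpG in 300 bases and a GC content of 63.0%. The 139 promoters with an HSC peak as well had 24 CpG and 63.3%. Promoters with no peak in the 4 libraries, 18668 in number, had a median of 10 CpG and 55.3% GC.

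The letters GGGCGG, on either strand, were present in 46.2% of all promoters, in 75.7% of those called in Nup214-HET LSCs alone of the pair and in 84.9% of those called in HSCs too. CCAAT was present in 38.2%, 50.6% and 56.8%. CCGGAAG, a core bound by ETS factors, was in 11.6%, 22.2% and 10.1%, that is in 259 of 1167 promoters without and 14 of 139 with an HSC peak, and the latter share stood near that of all promoters. TGACGTCA, the cyclic AMP response element, was in 2.23%, 5.48% and 5.76%. TGACTCA, the AP-1 element, was in 4.66%, 2.40% and 2.88%, and the letters GATAAG, read by blood and endothelial transcription factors, were in 6.92%, 3.51% and 4.32%. These letters are matches in a window and not measured sites, the GC-rich ones move with the CpG content given above, and no test was made.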

How the data were processed

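NUP214 was profiled by CUT&Tag in cells sorted from mouse bone marrow, with 2 libraries in each of 3 groups taken from the sample titles. Per the submitters' processing notes, FastQC 0.11.5, Bowtie2 2.2.9, MACS2, ChIPseeker and the mm10 build were used. For MACS2 settings, duplicate reads and a control sample the entry is: not given in the sources used here. The authors' deposited narrowPeak lists, 1 per library, give for each peak a fold enrichment (a linear ratio of summit to background), a −log10 p-value and a −log10 q-value, and a score, which was not used. Listed peaks reach a q of 0.05.

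Read totals are not in the lists. Summit pileup and background were recovered from MACS2's fold and Poisson p formulas, with 100% of peaks matched within a relative tolerance of 0.0001. Only chromosomes 1 to 19, X and Y were used, and peaks overlapped when they had at least 1 bp in common. The gene table was RefSeq's for GRCm38.p6, with 21887 protein-coding genes, 17492 of which had a promoter sequence and hence a strand. Groups were compared by two-sided exact permutation tests over libraries, and other counts have no test. The steps were tested on simulated peaks. Alternatives were lists of equal length, a stricter q, a minimum over background, other gene-end windows, the start alone, a larger overlap, a replicate block and each library left out, with a common minimum over background added after seeing the data.

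Genes were named by the mean percentile of fold of their strongest gene-end peak: 15 of those called in both Nup214-HET LSC libraries and no HSC library, 10 of those called in HSCs too, 10 of those called in HSCs and not in Nup214-HET LSCs, all called in both HSC libraries and up to 6 per list, without Gm and Rik symbols in the classes of 10 and 15. A result at 1 of these peaks is not reported here. The members, lists and tests were chosen with earlier results of these data known. Ighm had no match in the gene table. Python 3.11.15, pandas 2.3.3, numpy 2.4.6, scipy 1.17.1 and matplotlib 3.10.9 were used.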

Additional observations from a re-analysis of the deposited data

Results flagged for a closer look

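Peaks on unplaced or unlocalised sequences of the assembly were left out of every comparison above. They numbered 30 in Nup214-HET LSC 1, 30 in Nup214-HET LSC 2, 50 in HSC 1 and 30 in HSC 2, which is 0.547%, 0.637%, 4.57% and 4.52% of the lines of each list. No control without the antibody was there to set them against. The numbers are alike while the lists differ in length.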

How the results depend on the processing

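Among 108 recomputed values no tested difference changed sign, and counts and overlap shares cannot do so. Tested differences were judged by direction alone. Counts were judged by a change of 1.5 times and overlap shares by the spread between libraries. Of these counts and overlap shares, 18 moved further. Differences in peak number and in location kept their direction under every alternative, and with 2 libraries a group no alternative could pass 0.05, but their sizes moved. The gene-end difference of 26.3 points became 36.3 at a stricter q, 39.3 above the common minimum, 54.0 at equal list length and 63.4 at 50 times background. The intergenic one became -29.6, -32.5, -36.0 and -51.6, and the gene-body one -6.68, -6.81, -18.0 and -11.9, or -1.92 with gene starts alone. The equal-length overlap difference was 12.7 points at 317 peaks and 39.0 without regions called in all 6 libraries. The share of HSC regions overlapped by Nup214-HET LSC peaks was 38.0% without regions called in all 6 libraries and 50% at equal list length (634 peaks), and 29.5% to 74.4% with 1 library left out. It was 29.5% without HSC 1 and 40.3% without HSC 2, since all peaks of the library left then count as regions. The share of Nup214-HET regions overlapped by HSC peaks was 31.1% at equal list length and 5.72% to 18.1% with 1 library left out, the lowest without Nup214-HET LSC 2 and 6.10% without Nup214-HET LSC 1. Nup214-HET genes with no HSC gene-end peak numbered 279 at equal length, 535 at 50 times background and 1299 to 2329 with 1 library left out, the highest without Nup214-HET LSC 2. Nup214-HET genes with an HSC peak numbered 98 at equal length, 2 at 50 times background, 69 above the common minimum of 16.1 times background and 8 to 195 with 1 library left out. HSC genes with no Nup214-HET peak numbered 2 at 50 times background, 57 with a window of 2 kb, 17 at gene starts alone, 12 above the common minimum and 8 to 48 with 1 library left out. Without HSC 1 both of these counts were 8. Other ranges with 1 library left out were 2.27 to 2.99 for log2 peak number, 19.1 to 33.4 points for the gene-end share, -7.24 to -3.06 for the gene-body share, -26.2 to -16.1 for the intergenic share, and 17.2 to 35.8 points for the equal-length overlap of control LSCs minus HSCs.

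The replicate block, with same-numbered libraries paired, gave the same differences, 2.63 for log2 peak number, 26.3, -5.15 and -21.1 points for the location shares and 26.5 points for the equal-length overlap, each with an exact p of 0.5, the smallest a sign-flip test of 2 pairs can give. Library 1 exceeded library 2 in both groups for peak number and gene-end share, but the labels do not say that the numbers mark a shared batch. Lists began at 8.61 to 16.1 times background, highest in HSC 2, so a peak below its list's minimum could not be listed, and a gene or region that a list lacks is not shown to be unbound.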
